A study of Mus musculus with 6 samples.

Results

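The DNA replication and mitosis genes of mouse gastrocnemius, a fast calf muscle, are a module of 46 named genes, all of which were found by symbol among the 23367 gene entries of the deposited table. Polyadenylated RNA was sequenced from wild type FVB mice at 5 stages. The groups were E18.5 (embryonic day 18.5, 1 library of pooled RNA from several male and female fetuses), PN2 (postnatal day 2, 1 library of pooled RNA from several male pups), PN14 (2 libraries, each from a single male), PN28 (1 library, a single male) and adult (22 weeks, 1 library, a single male). The labels name no transgene and no treatment. By role, 20 members serve replication, 22 serve mitosis, 2 are the E-type cyclins of the G1/S boundary, and Mki67 and Top2a are general proliferation markers.

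A cell copies its DNA in S phase and divides the copies in mitosis. Before S phase the origin factors Cdc6 and Cdt1 load the Mcm2 to Mcm7 ring, which Cdc45 and the GINS complex turn into the active helicase, while ribonucleotide reductase (Rrm1 and Rrm2) and thymidylate synthase (Tyms) supply nucleotides. The replication genes are classically driven by E2F factors and the mitosis genes by the MuvB complex together with Mybl2 or Foxm1. MuvB binds the cell cycle genes homology region (CHR), and CCAAT boxes, bound by the separate factor NF-Y, are common in the same promoters. Nuclei inside a muscle fibre do not divide. In growing muscle the dividing cells are myoblasts, satellite cells, connective tissue and vascular cells, and in whole tissue fewer cycling cells cannot be told apart from less RNA per cell.

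The promoters of 6 members are shown because they carry the elements that separate the lists. Each is the 100 bases before the annotated start (RefSeq, GRCm38.p6), 5′ to 3′ on the gene's own strand, with matches in capitals: the CHR element (TTTGAA or TTCAAA), the CCAAT box (CCAAT or ATTGG) and the E2F site (TTTCGCGC or TTTGGCGC in these examples). Cdk1, the kinase of mitotic entry, lies at chr10:69352913-69353012 on the minus strand, Cdc20, the activator of the anaphase-promoting complex, at chr4:118437344-118437443 on the minus strand, and Kif11, the motor that separates spindle poles, at chr19:37376282-37376381 on the plus strand. Top2a, the topoisomerase that untangles sister chromatids, lies at chr11:99024190-99024289, the helicase subunit Mcm6 at chr1:128359706-128359805, and Rfc3, a subunit of the loader of the sliding clamp, at chr5:151651209-151651308, all on the minus strand.
Cdk1: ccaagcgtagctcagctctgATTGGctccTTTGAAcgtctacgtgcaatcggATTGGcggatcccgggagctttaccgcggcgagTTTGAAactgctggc
Cdc20: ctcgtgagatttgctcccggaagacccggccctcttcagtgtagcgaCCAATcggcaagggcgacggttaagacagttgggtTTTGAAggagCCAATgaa
Kif11: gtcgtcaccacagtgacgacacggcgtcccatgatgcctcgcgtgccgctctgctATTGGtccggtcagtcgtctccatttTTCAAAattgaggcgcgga
Top2a: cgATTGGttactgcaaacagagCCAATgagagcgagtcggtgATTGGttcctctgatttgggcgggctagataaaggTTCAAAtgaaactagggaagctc
Mcm6: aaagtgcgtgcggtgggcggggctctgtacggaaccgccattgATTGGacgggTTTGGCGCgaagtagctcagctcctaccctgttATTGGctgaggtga
Rfc3: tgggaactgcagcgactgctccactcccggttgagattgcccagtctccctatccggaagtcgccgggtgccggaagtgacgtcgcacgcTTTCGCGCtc

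Over windows from 250 bases before to 50 bases after the start, on both strands, 37 of the 46 members had a promoter in the RefSeq table. The CHR element was present in 12 of 17 mitosis members with a promoter (70.6%), in 3 of 17 replication members (17.6%) and in 20.2% of the 27025 genes of the table. An E2F site, searched as TTTCCCGC, TTTCGCGC, TTTGCCGC or TTTGGCGC, was present in 8 of 17 replication members (47.1%), in 2 of 17 mitosis members (11.8%) and in 2.6% of all genes. CCAAT boxes did not separate the lists, at 13 of 17 replication members (76.5%) and 14 of 17 mitosis members (82.4%), beside 41.1% of all genes. CHR and CCAAT together were present in 11 of 17 mitosis members, in 2 of 17 replication members and in 7.97% of all genes. The mitosis members with a promoter but without the CHR letters were Birc5, Bub1, Cenpe, Ccnb1 and Nusap1. Those with an E2F site were Cdk1, at position -131 and so outside the bases shown above, and Ncapg. These are matches of letters, and matches could overlap one another.

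**Figure D1:**
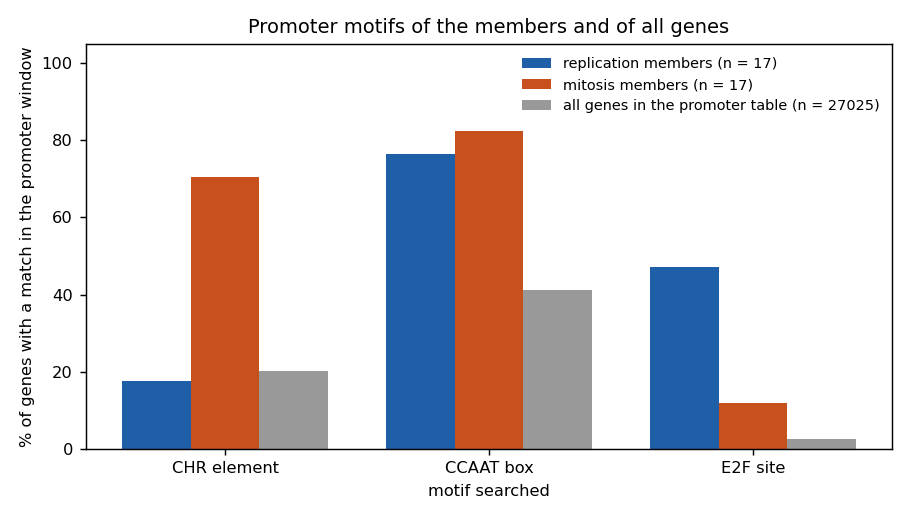
Share of genes with a match to each motif, in percent of the genes with a promoter sequence, for replication members (blue), mitosis members (orange) and all genes of the promoter table (grey). CHR matches are at 70.6% of mitosis members against 17.6% of replication members, and E2F matches at 47.1% of replication members against 11.8% of mitosis members.

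Each library held 125402932 to 157868359 counts on genes, and the 20 most abundant genes took between 16.0% (E18.5) and 36.9% (PN28 and adult) of them. Levels are given as FPKM, fragments scaled to gene length and library depth, as the authors deposited them. Shares of the E18.5 level and fold changes come from counts scaled between libraries by edgeR's TMM factors, since the median gene tested was lower by 1.08 log2 units from E18.5 to adult without that scaling (-0.05 with it). FPKM values carry that shift, so between E18.5 or PN2 and the later stages falls are larger and rises smaller in FPKM than in the folds given. To be called, a gene needed an adjusted p under 0.05 (edgeR's quasi-likelihood test, Benjamini-Hochberg over 16882 genes) and at least a 2-fold difference. The PN14 pair, the sole replicates, supplies the spread assumed for all stages. Each library also had a sequencing lane of its own, and lane and stage cannot be told apart.

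The module was expressed throughout at E18.5, where the 46 members ranged from 3.32 FPKM (Mcm10) to 94.08 FPKM (Pcna), and 34 were at 10 FPKM or more. In the adult 13 were at 1 FPKM or more and only Pcna was above 10 FPKM. From E18.5 to adult all 46 were lower and 42 were called lower, beside 23.6% of all genes tested. The replication members had a median log2 fold change of -2.70 and the mitosis members one of -6.72, beside -0.05 over all genes. The 4 members not called were Rrm1 (-0.68 ± 0.23), Aurka (-0.16 ± 0.24), Ccne2 (-0.16 ± 0.24) and Tpx2 (-1.15 ± 0.41), and with library size alone as the scaling these 4 were called too (Tpx2 also with DESeq2's Wald test).

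The medians of the lists differed in the course of the decline, with 1 library at every stage but PN14. At PN2 the replication members stood at a median 84.0% of their E18.5 level (71.9% for Cdc6 to 108% for Rfc3) and the mitosis members at 64.3% (57.2% for Plk1 to 72.0% for Cdc20). The ranges barely met, and 21 of 22 mitosis members were below the lowest replication member. At PN14 the lists overlapped, with medians of 27.9% and 22.6%. At PN28 the replication members were at 29.2% and the mitosis members at 16.7%. In the adult the replication members stood at 15.6% (1.93% for Mcm6 to 62.2% for Rrm1) and the mitosis members at 0.943% (0.324% for Ccnb1 to 89.5% for Aurka). In that library 11 mitosis members and no replication member were under 1% of the E18.5 level, and in FPKM 17 and 2 were. The gap of median log2 fold changes from E18.5 to PN2, mitosis minus replication, was -0.38. The 2 mice of PN14 differed by a median ratio of 1.35 for replication and 2.16 for mitosis members. Libraries of 1 age thus differed between the lists too, and the PN2 gap cannot be set apart from such differences. The members share their libraries, so these medians are a description and the difference between the lists was not tested.

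**Figure D2:**
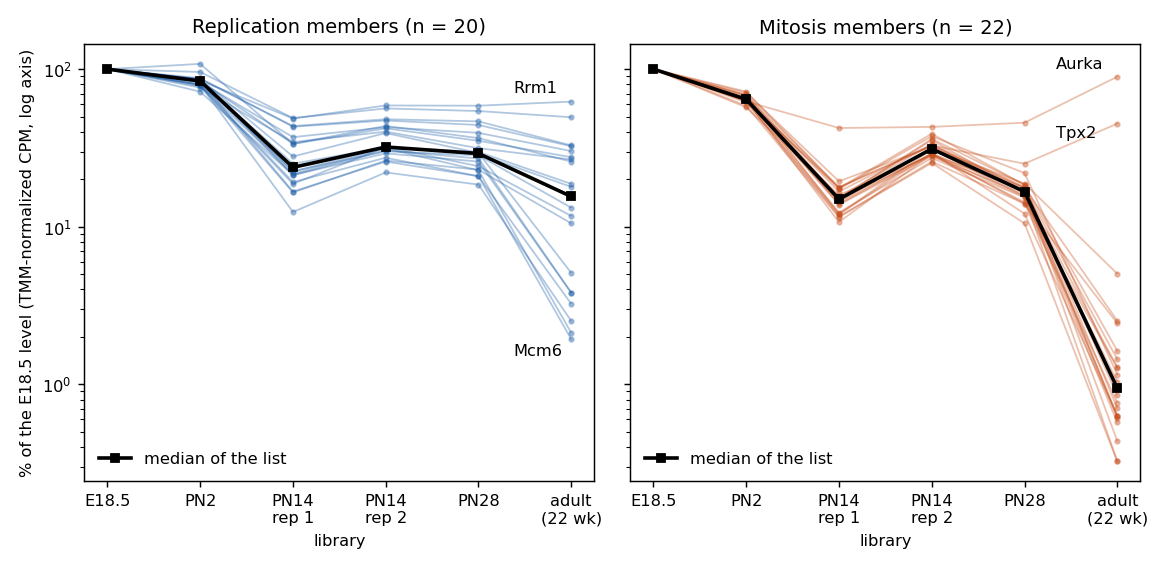
Level of each member in each library in percent of its E18.5 level (TMM-normalized CPM, log axis), for 20 replication members on the left and 22 mitosis members on the right, with the median in black. At PN2 the medians are 84.0% and 64.3%, the mitosis members are higher in PN14 replicate 2 than in replicate 1, and in the adult the medians are 15.6% and 0.943% with Aurka and Tpx2 apart from the other mitosis members.

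By interval, no member was called from E18.5 to PN2, where 2 of the genes tested (0.0118%) were called lower. A single member reached an unadjusted p under 0.05, and 45 of 46 had a log2 fold change below 0. From PN2 to PN14 all 46 were lower and 33 were called, 16 of 20 for replication and 14 of 22 for mitosis, beside 11.2% of all genes tested. The PN14 pair that supplies the spread differed by a median ratio of 1.35 for replication members and 2.16 for mitosis members. The call counts of the lists therefore do not compare the depth of their falls. The median log2 fold changes were -1.53 for replication and -1.48 for mitosis, and their order depended on the PN14 mouse. Without replicate 1 they were -1.32 and -1.07, and without replicate 2 they were -1.75 and -2.12. Without a test, 40 members were at least 2-fold lower, beside 12.5% of all genes. From PN14 to PN28 no member was called and none reached an unadjusted p under 0.05. In that interval 0 genes of the table were called lower (0.0%), with 1420 at an unadjusted p under 0.05 in either direction, and no member was 2-fold lower, beside 1.72% of all genes. The medians there were 0.00 for replication and -0.48 for mitosis.

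From PN28 to adult the medians were -0.87 for replication and -4.22 for mitosis, beside -0.01 for all genes. Only 5 members were called (Mcm5, Mcm6, Top2a, Cdk1 and Kif11), beside 0.361% of all genes tested. However, 35 members were lower with an unadjusted p under 0.05 (edgeR), beside 2015 of the 16882 genes tested. Many lay just past the threshold, such as Mki67 with a log2 fold change of -4.65 ± 0.62 (SE) at an adjusted p of 0.0511 (edgeR). DESeq2's Wald test called 30 members in this interval, edgeR's exact test 31, and restricting the test to genes with a mean of 1 CPM or more left 0. The call count in this interval therefore depends on the test, the scaling and the filter. The shares of all genes called under these alternatives are not given here, so the counts do not show whether the change is particular to the members.

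Mki67, the antigen of cycling nuclei, was at 23.25 FPKM in the E18.5 library and 17.11 in the PN2 library, at 2.16 and 5.76 in the PN14 pair, at 2.55 by PN28 and at 0.09 in the adult. The PN14 mean was 3.96 ± 2.55 (SD, n = 2). Its log2 fold change was -1.50 ± 0.43 from PN2 to PN14 (adjusted p = 0.0443, edgeR) and -6.95 ± 0.68 from E18.5 to adult (adjusted p = 0.00139, edgeR). Top2a went through 37.0, 24.54, 2.99 and 7.11, 3.27 and 0.10 FPKM. It fell by 1.67 ± 0.37 from PN2 to PN14 (adjusted p = 0.0237, edgeR) and fell by 4.87 ± 0.56 from PN28 to adult (adjusted p = 0.0476, edgeR). Both were high in the perinatal libraries, intermediate in the 3 libraries of PN14 and PN28, and near 0 in the adult, where Top2a had 75 fragments (exact 95% Poisson interval 59.0 to 94.0, which covers counting error only).

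Among licensing and helicase genes, Mcm6 was the most abundant at E18.5. Its values in stage order, with the PN14 replicates side by side, were 32.68, 27.46, 3.16 and 5.87, 3.69 and 0.31 FPKM. It fell by 1.98 ± 0.27 on the log2 scale from PN2 to PN14 (adjusted p = 0.00715, edgeR) and fell by 3.44 ± 0.37 from PN28 to adult (adjusted p = 0.0426, edgeR). Gins2, a GINS subunit, had the largest fall of the group from PN2 to PN14, at -2.20 ± 0.36 (adjusted p = 0.0108, edgeR). Its FPKM values were 19.55, 15.55, 1.41 and 2.99, 1.95 and 0.24 in stage order. Gins1, its partner in the same complex, had the smallest difference in that interval, at -0.95 ± 0.29 (adjusted p = 0.0532, edgeR), with 5.39, 4.70, 1.34 and 1.77, 1.28 and 0.85 FPKM. The ratio of Gins2 to Gins1 in FPKM thus went from 3.63 at E18.5 to 1.52 at PN28 and 0.282 in the adult.

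The 6 subunits of the Mcm2 to Mcm7 ring, which assemble in equal number, stayed within 2.44-fold of one another until PN28 and lay further apart in the adult. Mcm7 over Mcm2 was 1.33 at E18.5 and already 2.01 and 1.81 in the PN14 pair. Mcm6 over Mcm2 was 1.44 at E18.5 and 1.08 and 1.16 in that pair. The highest subunit was 1.76 times the lowest in the E18.5 and PN2 libraries, 2.44 and 2.23 times in the PN14 pair, 2.08 times by PN28 and 12.5 times in the adult. In the adult Mcm7 was at 3.86 FPKM, Mcm2 at 2.09, Mcm4 at 1.63 and Mcm3 at 1.53, while Mcm5 was at 0.37 and Mcm6 at 0.31. The log2 fold changes from PN28 to adult were -2.83 ± 0.32 for Mcm5 (adjusted p = 0.0476, edgeR) and between -1.10 and -0.49 for Mcm2, Mcm3, Mcm4 and Mcm7, with adjusted p between 0.120 and 0.359. The difference between subunits was not tested, and the adult is a single mouse.

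**Figure D3:**
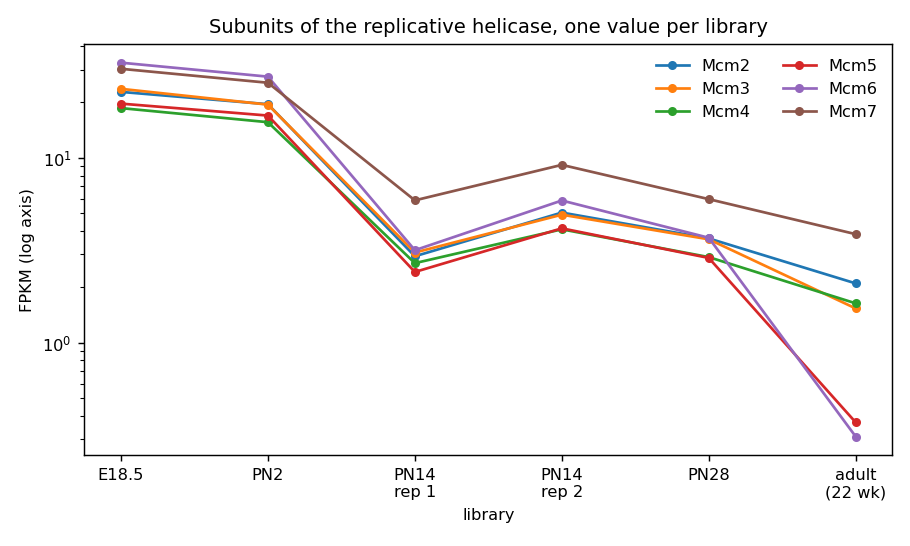
FPKM (log axis) of the 6 subunits of the replicative helicase in each library, one line per subunit. The lines stay within 2.44-fold of one another to PN28, where Mcm5 is at 2.87, Mcm6 at 3.69 and Mcm7, the highest, at 5.97 FPKM. In the adult Mcm5 and Mcm6 lie at 0.37 and 0.31 FPKM below the 4 others at 1.53 to 3.86 FPKM.

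The remaining licensing genes lay at both ends of that spread in the adult. Mcm10, a firing factor, was at 2.12% of its E18.5 level, Cdt1 at 3.24% and Cdc6 at 3.81%, close to Mcm5 (3.81%) and Mcm6 (1.93%). Cdc45 was at 30.2%, close to Gins1 (32.4%) and Mcm7 (25.9%). From PN2 to PN14, Mcm10, Cdc6, Cdt1, Cdc45 and all of Mcm2 to Mcm7 were called lower, with log2 fold changes from -1.98 to -1.05.

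In the clamp and polymerase group Pcna, the sliding clamp, had the highest level of all members. Its values were 94.08, 81.48, 23.64 and 31.35, 23.69 and 15.16 FPKM. It was lower by less than 2-fold from PN2 to PN14, at -0.92 ± 0.17 (adjusted p = 0.0148, edgeR). Prim1, the primase catalytic subunit, fell most in this group, by 1.89 ± 0.32 (adjusted p = 0.0117, edgeR), with 13.02, 10.32, 1.24 and 2.37, 1.62 and 0.67 FPKM. Fen1, the flap nuclease of Okazaki fragments, had the smallest difference, at -0.87 ± 0.20 (adjusted p = 0.0248, edgeR). It was at 11.56 FPKM at E18.5 and 2.79 in the adult (24.1%), and its TMM-scaled adult level was 49.5% of that at E18.5. The clamp loader subunit Rfc3 was the only member above its E18.5 level at PN2 (15.10 and 16.28 FPKM), and Pola1, the catalytic subunit of polymerase alpha, went from 6.29 to 0.36 FPKM in the adult. All 5 genes of this group were called lower from E18.5 to adult, and their adult levels lay between 10.5% and 49.5% of E18.5.

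Of the nucleotide enzymes, Rrm1, the large subunit of ribonucleotide reductase, was the replication member with the smallest decline. Its values were 25.66, 21.74, 7.21 and 10.45, 8.12 and 7.84 FPKM. The log2 fold change was -0.66 ± 0.19 from PN2 to PN14 (adjusted p = 0.0474, edgeR), under the fold limit, and 0.09 ± 0.23 from PN28 to adult (adjusted p = 0.878, edgeR). Rrm2, the small subunit of the same enzyme, went through 17.63, 15.15, 2.85 and 4.80, 2.80 and 0.44 FPKM and fell by 1.35 ± 0.25 from PN2 to PN14 (adjusted p = 0.0138, edgeR). Rrm2 over Rrm1 was 0.687 at E18.5, 0.345 at PN28 and 0.0561 in the adult. Tyms fell by 1.04 ± 0.19 from PN2 to PN14 (adjusted p = 0.0134, edgeR) and was at 26.7% of its E18.5 level in the adult.

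The E-type cyclins, partners of Cdk2 at the G1/S boundary, differed in course. Ccne1 had the largest fall of all members from PN2 to PN14, at -2.98 ± 0.28 (adjusted p = 0.00395, edgeR), with 26.25, 20.10, 1.17 and 2.13, 0.93 and 0.17 FPKM. Ccne2 was at 6.81, 4.55, 1.41 and 1.57, 1.75 and 2.98 FPKM, with -0.95 ± 0.21 from PN2 to PN14 (adjusted p = 0.0213, edgeR). From PN28 to adult it differed by 0.90 ± 0.25 (adjusted p = 0.152, edgeR), and its TMM-scaled adult level was 89.2% of that at E18.5 (43.8% in FPKM). Ccne2 over Ccne1 in FPKM was 0.259 at E18.5 and 17.5 in the adult.

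In the mitotic entry group Ccna2, the cyclin of S phase and G2, was the most abundant at E18.5, with 32.37, 22.11, 2.86 and 7.47, 2.87 and 0.20 FPKM. It fell by 1.49 ± 0.41 from PN2 to PN14 (adjusted p = 0.0413, edgeR). Ccnb1, the mitotic partner of Cdk1, fell by 1.66 ± 0.42 (adjusted p = 0.0327, edgeR) and went from 23.28 FPKM at E18.5 to 0.04 in the adult, where it had 12 fragments (exact 95% Poisson interval 6.20 to 21.0). Cdk1 itself was at 27.45, 17.66, 2.27 and 5.51, 2.30 and 0.08 FPKM, and fell by 4.76 ± 0.60 from PN28 to adult (adjusted p = 0.0499, edgeR). The other cyclin B gene Ccnb2, the phosphatase Cdc25c that activates Cdk1, and the kinase Plk1 were at 0.437%, 1.04% and 1.27% of E18.5 in the adult.

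Aurka, the spindle pole kinase, did not share that course. It was at 10.85, 6.76, 2.65 and 3.23, 2.68 and 4.77 FPKM, with -0.55 ± 0.20 from PN2 to PN14 (adjusted p = 0.0869, edgeR) and 0.97 ± 0.24 from PN28 to adult (adjusted p = 0.127, edgeR). Its relative Aurkb, the kinase of the chromosomal passenger complex, was at 18.30, 11.86, 1.48 and 3.70, 1.66 and 0.06 FPKM. Its TMM-scaled adult level was at 0.614% of E18.5, and that of Aurka at 89.5% (44.0% in FPKM). Aurka over Aurkb was 0.593 at E18.5 and 79.5 in the adult. Tpx2, the spindle protein that activates Aurka, was at 16.63, 10.58, 1.70 and 3.77, 2.25 and 3.71 FPKM. It fell by 1.34 ± 0.34 from PN2 to PN14 (adjusted p = 0.0336, edgeR) and differed by 0.85 ± 0.41 from PN28 to adult (adjusted p = 0.348, edgeR). Aurka, Ccne2 and Tpx2 were thus higher in FPKM in the adult than at PN28, and none was called higher.

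All 7 members of the checkpoint and kinetochore group were at or under 1.63% of E18.5 in the adult, and between 12.1% and 18.5% at PN28. Birc5, the passenger complex subunit survivin, was the most abundant, at 34.60, 22.51, 2.91 and 7.59, 3.21 and 0.13 FPKM, and fell by 1.41 ± 0.39 from PN2 to PN14 (adjusted p = 0.0410, edgeR). Bub1, a checkpoint kinase, fell by 1.71 ± 0.44 (adjusted p = 0.0341, edgeR) and reached 0.01 FPKM in the adult on 6 fragments (exact 95% Poisson interval 2.20 to 13.1). Cenpf, a kinetochore protein, had the smallest difference, at -1.33 ± 0.46 (adjusted p = 0.0741, edgeR). Its partner motor Cenpe, the checkpoint protein Bub1b and Cdc20 had adjusted p between 0.0510 and 0.0587 in that interval (edgeR), with log2 fold changes from -1.67 to -1.35.

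Of the spindle and chromosome genes, Nusap1, a microtubule-binding protein, fell most from PN2 to PN14, by 1.74 ± 0.43 (adjusted p = 0.0304, edgeR), with 14.88, 9.36, 1.0 and 2.67, 1.13 and 0.18 FPKM. Kif11 and Ncapg, a condensin subunit, were called lower as well, and stood at 1.44% and 0.630% of E18.5 in the adult. In the cytokinesis group Prc1, which bundles the central spindle, was the most abundant, at 21.42, 13.83, 2.15 and 5.56, 2.53 and 0.12 FPKM. Its log2 fold change from PN2 to PN14 was -1.23 ± 0.41 (adjusted p = 0.0669, edgeR), the smallest of the group. Ect2, the exchange factor that activates RhoA at the furrow, fell by 1.65 ± 0.40 (adjusted p = 0.0287, edgeR). The kinesin Kif20a was at 2.53% of E18.5 in the adult and the scaffold Anln at 5.03%, the highest share among mitosis members after Aurka and Tpx2.

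**Figure D4:**
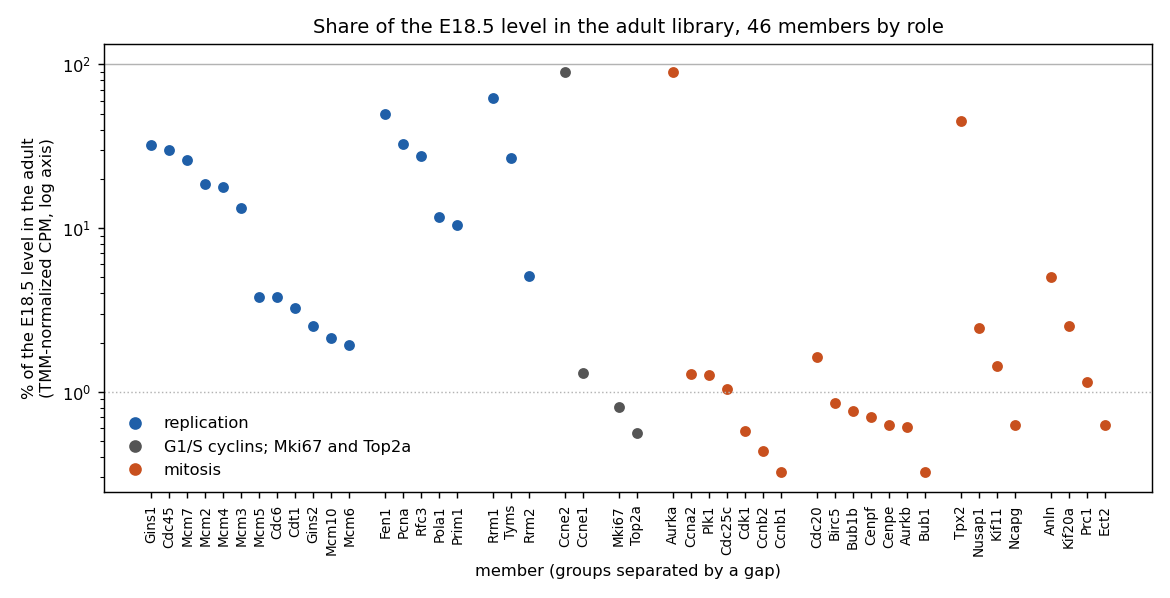
Adult level of each of the 46 members in percent of its E18.5 level (TMM-normalized CPM, log axis), grouped by role, with one point per member from 1 adult library. Replication members (blue) lie between 1.93% and 62.2%, 11 of 22 mitosis members (orange) lie under the dotted line at 1%, and Aurka and Ccne2 lie near 90% (89.5% and 89.2%).

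The single pair of replicates differed along the same axis. At PN14, 45 of the 46 members were higher in replicate 2 than in replicate 1, the exception being Ccne2 with a ratio of 0.931. The ratio had a median of 1.35 for replication members (1.09 for Gins1 to 1.77 for Gins2) and of 2.16 for mitosis members (1.02 for Aurka to 2.72 for Bub1b), beside 1.01 over the 16377 genes compared. The ratio was 2-fold or more for 16 of 22 mitosis members, for no replication member and for 4.27% of all genes. Set against PN28, replicate 1 had a median ratio of 0.885 for replication members and 0.889 for mitosis members. Replicate 2 had 1.14 and 1.86. The members' change from PN14 to PN28 therefore depends on which mouse stands for PN14: without replicate 1, 6 members were 2-fold lower. The share of all genes that were 2-fold lower without replicate 1 is not given here. That count therefore does not show whether the change is particular to the members.

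Markers of several cell types also differed between the replicates. Between replicates 1 and 2 the summed FPKM was 16.9 and 26.5 for 6 satellite cell markers, 124 and 187 for 4 myoblast markers, 175 and 261 for 6 endothelial markers, 214 and 851 for 4 Schwann cell markers, and 87400 and 65300 for 6 myofibre markers. The median TMM-scaled ratio of replicate 2 to replicate 1 was 1.47, 1.29, 1.23, 2.88 and 0.571 in the same order, and it was 1.02 for fibroblast, 1.13 for macrophage and 0.964 for chondrocyte and bone markers. Their part in the members' difference was not tested.

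**Figure D5:**
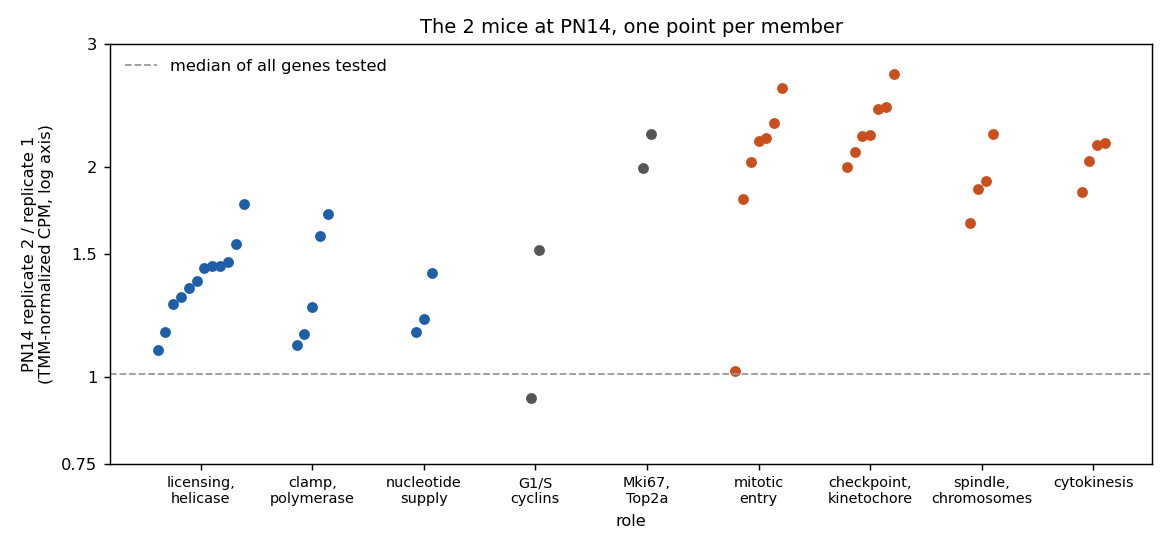
Ratio of PN14 replicate 2 to replicate 1 (TMM-normalized CPM, log axis) for each member by role, with the median of all genes dashed at 1.01. All replication members (blue) lie under 2 and 16 of 22 mitosis members (orange) lie at 2 or above, while Aurka at 1.02 and Ccne2 at 0.931 lie nearest to the line or under it.

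Across stages, cell type markers differed as well, given here as summed FPKM without scaling between libraries. The 6 satellite cell markers summed to 80.3 FPKM in the E18.5 library, 70.5 in the PN2 library, 12.7 by PN28 and 8.23 in the adult, with Calcr at 0.07 FPKM in the adult. The 5 chondrocyte and bone markers went from 110 FPKM at E18.5 to 61.7 in pups of PN2 and 0.19 in the adult, where 4 of 5 were under 0.1 FPKM; Ibsp was listed at 0 from PN14 on, and Bglap was listed at 0 in the adult. Fibroblast markers summed to 6090 and 516 FPKM and macrophage markers to 79.2 and 45.9 FPKM at E18.5 and in the adult, while 4 myoblast markers went from 446 to 88.7 FPKM and 6 endothelial markers from 185 to 69.0 FPKM. Schwann cell markers went from 45.1 to 154 FPKM. On the TMM scale the median marker stood in the adult at 14.6% of E18.5 for satellite cells, 33.2% for myoblasts, 17.5% for fibroblasts, 73.2% for endothelial cells, 65.2% for macrophages and 0.163% for chondrocytes and bone. At PN2, PN14 and PN28 the endothelial median was at 102%, 186% and 123%, and the satellite cell median at 89.9%, 47.7% and 34.0%. Single markers of these lists stood above E18.5 in the adult. They were Lyz2 at 230% and Cd14 at 120% (macrophage), Myf6 at 202% (myoblast), Dcn at 168% (fibroblast) and Emcn at 125% (endothelial). Myofibre markers were at 17400 and 75100 FPKM, so the labelled tissue carried its defining markers throughout. Their part in the members' decline was not tested.

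The strand used in counting is not given in the sources used here, and without it reads of overlapping genes cannot be told apart. In GENCODE M1 (mm9) 9 members overlap another protein-coding gene, namely Mcm7, Cdc45, Gins2, Ccna2, Ccne2, Cdc20, Kif20a, Nusap1 and Ncapg. Ccne2 (chr4:11118498-11131926) overlaps Ints8 on the other strand, which was at 13.1 FPKM at E18.5 and 5.40 in the adult. Mcm7 (chr5:138605811-138613650) overlaps Cops6, at 92.3 and 72.71 FPKM, and Cdc45 (chr16:18780540-18812080) overlaps Ufd1l, at 19.93 and 28.95 FPKM. Aurka (chr2:172181690-172196035) starts 146 bases from Cstf1, at 17.6 and 9.83 FPKM. Neighbours were sought within 5000 bases, and further out only for Aurka, Ccne2 and Tpx2. Tpx2 (chr2:152673700-152721057) ends 16031 bases before Mylk2, a muscle kinase gene on the same strand, at 46.65 FPKM at E18.5, 238.4 at PN28 and 528.51 in the adult. Bcl2l1, 16236 bases from Tpx2 on the other strand, was at 16.06 FPKM at E18.5 and 5.04 in the adult. Trp53inp1, 16972 bases from Ccne2 on the same strand, was at 4.59 and 2.82 FPKM. Whether reads of these neighbours enter the members' values was not tested.

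Lists of related genes outside the module, chosen with earlier results of these data known, were described in the same way. Of 33 other replication genes, 17 were called lower from PN2 to PN14 and 22 from E18.5 to adult, beside 11.2% and 23.6% of all genes tested. None was called higher in either comparison, beside 21.4% of all genes from E18.5 to adult. Their median adult level was 24.9% of E18.5, with Dscc1 lowest at 1.08% and Rpa1, a subunit of the single-strand binding complex, highest at 179% (87.8% in FPKM). The adult value of Dscc1 rested on 3 fragments (exact 95% Poisson interval 0.619 to 8.77). Of 40 other mitosis genes, 19 and 39 were called lower in those comparisons, beside the same shares of all genes, and none higher. Their median adult level was 2.66%, with Melk lowest at 0.323% and Bub3 highest at 102% (below its E18.5 level in FPKM). That of Melk rested on 4 fragments (1.09 to 10.2). At PN2 the medians were 85.4% for the other replication genes (74.9% to 107%) and 70.2% for the other mitosis genes (51.1% to 94.4%). These ranges overlapped, unlike the nearly separate ranges of the members. The median PN14 ratios of replicate 2 to 1 were 1.23 and 1.80.

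Among 20 transcriptional regulators of cell cycle genes, 7 were called lower and 3 higher from E18.5 to adult, beside 23.6% and 21.4% of all genes tested. The activator E2f1 fell by 4.57 ± 0.36 on the log2 scale (adjusted p = 0.00123, edgeR), Mybl2 fell by 6.73 ± 0.56 (adjusted p = 0.00124, edgeR) and Foxm1 fell by 5.20 ± 0.49 (adjusted p = 0.00133, edgeR). E2f2, E2f7, E2f8 and Rbl1 were also called lower. The repressor E2f6 rose by 2.23 ± 0.28 (adjusted p = 0.00224, edgeR), the pocket protein Rbl2, known from quiescent cells, by 2.12 ± 0.30 (adjusted p = 0.00288, edgeR), and the MuvB subunit Lin52 by 1.51 ± 0.28 (adjusted p = 0.00643, edgeR). With library size alone the log2 fold changes were 1.21 for E2f6, 1.09 for Rbl2 and 0.48 for Lin52, and Lin52 lost its call (adjusted p = 0.424, edgeR). In FPKM Lin52 was at 3.94 at E18.5 and 5.51 in the adult. E2f6 was at 31.55, 34.04, 41.54 and 39.61, 49.50 and 72.31 FPKM, and Rbl2 at 6.74, 6.08, 7.86 and 6.61, 9.62 and 14.38 FPKM. Mybl2 was at 5.42 FPKM at E18.5, 0.54 at PN28 and 0.02 in the adult.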

How the data were processed

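Reads had been mapped to mm9 by the authors (TopHat2 2.0.5) and assigned to RefSeq genes with RSEM. The deposited table holds expected counts, not normalized between libraries, and FPKM values normalized by the authors for gene length and library depth. Groups were taken from the labels. Expected counts were rounded and fitted in R 4.3.3 with edgeR 4.0.16 (TMM, filterByExpr by stage, quasi-likelihood test, Benjamini-Hochberg adjustment over 16882 genes), with all 6 libraries in a single fit. The PN14 pair gives the sole residual degree of freedom (1; prior 4.86; common biological coefficient of variation 0.188), so p-values rest on that pair's spread. The SE of a log2 fold change is its size divided by the square root of its F statistic. Calls needed an adjusted p under 0.05 and at least a 2-fold difference. The 2-fold counts without a test used log2 of TMM-scaled CPM plus 0.1. With counts simulated for PN2 to PN14 over 16458 genes, the test recovered 14 of 50 genes changed 2-fold, 46 of 50 changed 4-fold and 50 of 50 changed 8-fold, with 15 false calls among 175. The simulation gave every gene the same spread and every library the same base profile, and changed only genes expected at 50 counts or more. A true 2-fold change also lies on the fold limit. These rates may therefore not hold for the members. The alternatives were library size alone, DESeq2 1.42.0 size factors and Wald test, edgeR's exact test, no filter, a mean of at least 1 CPM, no fold limit, a pseudocount of 1, FPKM and each PN14 replicate left out. Every member was named, with full statistics for Mki67, Top2a, the most abundant member of each role at E18.5, the members with the largest and smallest fall of their role from PN2 to PN14, and members that were higher in the adult than at PN28; values of other members were given where a ratio or a call turned on them. The members and gene lists were chosen with earlier results of these data known. Promoters came from RefSeq (GRCm38.p6) and coordinates from GENCODE M1 (mm9). One marker list is not reported here.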

Additional observations from a re-analysis of the deposited data

How the results depend on the processing

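The number of members called lower from PN28 to adult was 5, and it became 30 with library size alone, 13 with DESeq2's size factors, 30 with DESeq2's Wald test, 31 with edgeR's exact test, 31 without a filter and 0 with a mean of at least 1 CPM. The causes were not tested, and the shares of all genes called under these alternatives are not given here. Library size alone also moved the median log2 fold change of the replication members to -2.17 from PN2 to PN14, to -0.24 from PN14 to PN28 and to -3.72 from E18.5 to adult, and that of the mitosis members to -7.74 from E18.5 to adult, in step with the median of all genes (-0.66, -0.25 and -1.08). From PN14 to PN28, 2 members were 2-fold lower with library size alone and 6 without PN14 replicate 1, against 0 in the main setting. The shares of all genes under these 2 choices are not given here either. The median share of the E18.5 level left in the adult was 7.63% for the replication members and 0.464% for the mitosis members in FPKM. Single-gene values were recomputed with library size alone or DESeq2's Wald test for PN2 to PN14 and E18.5 to adult. Of these, 159 kept their direction and side of the threshold, 25 gained a call and 0 reversed. The interval from PN28 to adult, where the number of calls moved most, is not part of this count. Depth limits the adult values of the lowest members, since Cdc25c rested on 5 fragments. No paired analysis was possible because only PN14 has replicate numbers.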
